A study of Mus musculus with 3 samples.

Results

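The SR proteins and the heterogeneous nuclear ribonucleoproteins (hnRNPs) are the largest families of RNA-binding proteins that choose splice sites. Their genes were taken by symbol: Srsf followed by a digit, or any symbol that starts with Hnrnp, with at least 1 annotated protein-coding transcript. Of 33 matching symbols, 2 that carry the ending -ps were left out, which gave 31 genes of 55536 (11 Srsf and 20 Hnrnp) with 282 of 141767 annotated transcripts. Primary macrophages grown from the bone marrow of C57BL/6J mice received 100 ng/ml Lipid A for 12 h, rested without it for 12 h, and met 100 ng/ml Lipid A once more for 50 min. Lipid A is the membrane anchor of bacterial lipopolysaccharide and the ligand of Toll-like receptor 4. Total RNA of the cytosolic fraction was freed of ribosomal RNA and sequenced; libraries started from 1 µg and held fragments 250 to 400 bases long. The 3 libraries are biological replicates 1, 2 and 3 of this 1 condition and carry 1 strain-level donor entry, so there is no untreated or once-treated group, and tests measure the spread between cultures of a single strain, which may in part be technical.

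SR proteins bind exonic enhancers through RNA recognition motifs and recruit the spliceosome through a domain rich in arginine and serine, whereas many hnRNPs bind introns or exonic silencers and hold splice sites back. Several members of both families limit their own level: a high amount of the protein makes its own transcript include an exon with a premature stop codon, or splice behind its normal stop codon, and nonsense-mediated decay (NMD) then removes that RNA in the cytoplasm. Transcripts of these genes that keep an intron are known mainly from the nucleus.

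Depth was 47972062, 54409436 and 53491957 expected counts in replicates 1, 2 and 3, and the 31 genes held 0.400%, 0.370% and 0.331% of them. All 12 macrophage markers examined reached at least 1 TPM (transcript abundance after division by length, as a share of all indexed RNA) in every library, with a median of 454 ± 98.6 (SD over the 3 libraries, as throughout), while the fibroblast list had 0 of 5 such genes, the B cell list 0 of 5, the T cell list 1 of 5 (Cd4), the dendritic cell list 1 of 5 (Ccr7) and the neutrophil list 3 of 8 (Csf3r, S100a8 and S100a9, with Ly6g at 0). The 7SL RNAs Rn7s1 and Rn7s2 held 55.0%, 64.0% and 56.6% of all TPM, so libraries were compared in CPM, a gene's share of the counts of its library, with library sizes scaled by the trimmed mean of M-values. Replicate 1 stood apart in RNAs known to stay in the nucleus: Malat1 was at 5966, 3089 and 1426 CPM in replicates 1, 2 and 3, Neat1 at 636, 248 and 128, Xist at 610.4, 194 and 53.0, and Kcnq1ot1 at 48.8, 15.7 and 5.17. All 4 RNAs were highest in replicate 1 and lowest in replicate 3, and this order recurs in several results on the splicing genes. In bulk RNA, fewer cells that express a gene and less RNA per cell cannot be told apart.

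Of the 31 genes, 30 had a TPM of at least 1 in every library. The exception was Srsf12, an SR protein reported mainly from testis and brain, which had 0 expected counts in all 3 libraries; a count of 0 allows up to 0.0625, 0.0551 and 0.0561 CPM (3 counts of each total, counting error only). The expressed SR genes had a median TPM of 24.2, 16.6 and 20.7 in replicates 1, 2 and 3 (20.5 ± 3.81), and the hnRNP genes one of 46.9, 34.7 and 44.8 (42.1 ± 6.54). Over the 9059 expressed coding genes the median was 9.12 ± 1.61, and 28 of the 30 expressed members lay above it, all but Hnrnpll and Hnrnph3. In the plot of levels by library, replicate 2 was the lowest library in TPM for every expressed gene of both families, and its share of 7SL RNA was the highest.

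**Figure D1:**
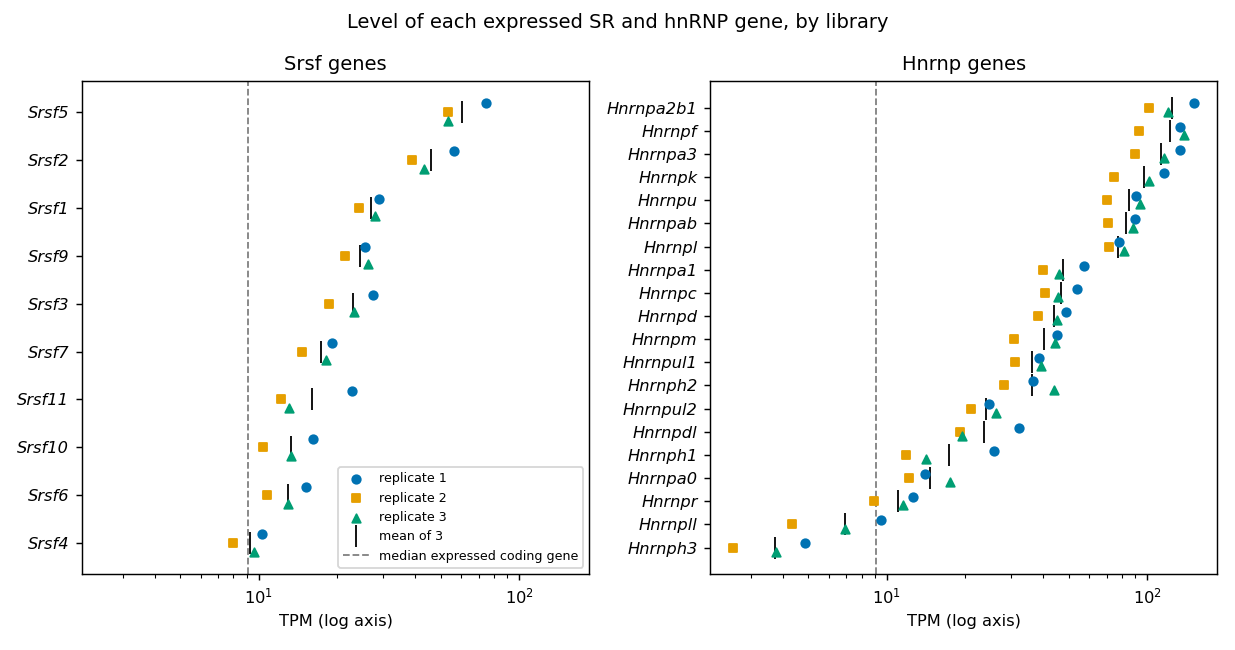
TPM on a log axis of the 10 expressed Srsf genes (left) and the 20 Hnrnp genes (right) in replicates 1, 2 and 3 (circle, square, triangle), with the mean of the 3 libraries (black tick) and the median expressed coding gene (dashed, 9.12 TPM). The SR genes spread from Srsf4 at 9.30 to Srsf5 at 60.4 TPM, and the hnRNP genes from Hnrnph3 at 3.73 to Hnrnpa2b1 at 125 TPM.

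Among the SR genes, Srsf5 was the most abundant. Its TPM was 74.6, 53.3 and 53.4 (60.4 ± 12.2), and 90.5% of expressed coding genes lay below it. Srsf2, known as SC35 and used as a marker of nuclear speckles, followed at 56.3, 38.7 and 43.3 (46.1 ± 9.16). Srsf1, the founding member that was first purified as splicing factor SF2, stood at 29.1, 24.2 and 28.0 TPM (27.1 ± 2.58). Srsf2 exceeded Srsf1 in each library. Srsf9 at 24.4 ± 2.63 and Srsf3 at 23.1 ± 4.43 TPM did not differ beyond their spread: Srsf9 was at 25.7, 21.4 and 26.2, Srsf3 at 27.5, 18.6 and 23.3, and their order changed between libraries. Srsf3 and Srsf7 both shuttle to the cytoplasm and help to export mRNA, and Srsf7 was lower, at 19.1, 14.7 and 18.1 TPM (17.3 ± 2.31). Srsf11 (16.0 ± 5.90), Srsf10 (13.3 ± 2.85), a general repressor of splicing when dephosphorylated, and Srsf6 (13.0 ± 2.19) followed within their spread of each other. Srsf4 was the lowest expressed SR gene, at 10.3, 7.99 and 9.62 TPM (9.30 ± 1.19).

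The hnRNP genes reached higher. Hnrnpa2b1, a core hnRNP protein that also sorts RNAs for transport, was at 152, 102 and 120.5 TPM (125 ± 24.9), above 95.5% of expressed coding genes. Hnrnpf, a binder of G-tracts, was at 134, 93.3 and 139 (122 ± 24.9), and Hnrnpa3 at 134, 89.6 and 116 (113 ± 22.1). These 3 genes did not differ beyond their spread, and the highest of them was Hnrnpa2b1 in replicates 1 and 2 and Hnrnpf in replicate 3. Hnrnpk, whose KH domains bind C-rich RNA, had a TPM of 116, 74.8 and 102 (97.4 ± 20.8). Hnrnpu, a scaffold of nuclear RNA and chromatin, was at 90.6, 70.2 and 94.0 (84.9 ± 12.9), and Hnrnpab at 89.5, 70.7 and 88.1 (82.8 ± 10.5). Hnrnpl, which binds CA repeats, completed the upper group at 77.2 ± 5.05 TPM. A gap separated it from Hnrnpa1 (47.7 ± 8.86), Hnrnpc (46.6 ± 6.81), a binder of uridine tracts, and Hnrnpd (44.1 ± 5.42), also called AUF1, which speeds the decay of mRNAs with AU-rich elements.

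Hnrnpm (40.1 ± 7.93), Hnrnpul1 (36.2 ± 4.44) and Hnrnph2 (36.1 ± 7.84 TPM) were close together. Hnrnpul2 (24.0 ± 2.72), Hnrnpdl (23.6 ± 7.41), Hnrnph1 (17.3 ± 7.53), Hnrnpa0 (14.6 ± 2.68) and Hnrnpr (11.0 ± 1.89) lay below them. Hnrnpa0 is a further binder of AU-rich elements and a substrate of the p38 kinase pathway. The lowest genes were Hnrnpll, known for the splicing of the Ptprc (CD45) transcript in lymphocytes, at 9.49, 4.33 and 6.92 TPM (6.91 ± 2.58), and Hnrnph3 at 4.87, 2.57 and 3.74 (3.73 ± 1.15). Hnrnph1 and Hnrnph2 encode near relatives, and Hnrnph2 was the higher of them in every library.

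Some of these levels rest on reads that other genes could also hold. All runs of 31 bases in the coding transcripts of each gene were searched in the GENCODE transcripts of all other genes, on either strand. Of these runs, 66.5% in Srsf4, 66.2% in Hnrnpf, 49.4% in Hnrnpa1, 37.6% in Srsf3, 34.0% in Srsf2 and 31.9% in Srsf5 also occurred elsewhere, most often in genes with no name beyond a Gm number. No run was shared for Srsf6, Srsf9, Srsf11, Hnrnpa0, Hnrnpll and Hnrnpu. Hnrnpa3 shared 28.6% with 54 other genes, and its level depended on the table: the second transcript table of each library gave it 16.7 TPM, 0.148 of its gene-table TPM, where this ratio was 0.419 for the median expressed coding gene. Part of the difference sat in 1 coding transcript, Hnrnpa3-207 of 1074 nt. It held 34.0% of the gene's TPM in the first transcript table and near 0 in the second, which is too little to account for the whole gap. The level of Hnrnpa3 is therefore uncertain, and those of Srsf4, Hnrnpf and Hnrnpa1 carry the same limit from shared runs. Their tables differed less (ratios of 0.424, 0.434 and 0.345). Both tables describe the same libraries, so whether shared runs affect these genes less was not tested. Annotated genes on the opposite strand overlap Hnrnpab, Hnrnpd, Hnrnpf, Hnrnph3, Hnrnpk, Hnrnpl, Hnrnpr, Hnrnpu, Srsf1, Srsf2 and Srsf4. Hnrnpa3, Hnrnpm and Hnrnpul2 each overlap another annotated gene on the same strand.

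Between the libraries the levels of both families differed by about as much as those of other genes. By a Poisson heterogeneity chi-square test on whole counts with Benjamini-Hochberg adjustment, 29 of the 30 expressed members differed between the 3 libraries beyond counting error, as did 70.4% of all 13827 genes tested; Hnrnph3, with counts of 409, 413 and 381, was the exception (adjusted p = 0.668). Without replicate 3 the count was 18 of 30, against 50.7% of all genes. The ratio of the highest to the lowest library in CPM had a median of 1.17 over the members and 1.19 over expressed coding genes, and the median biological coefficient of variation was 0.127 against 0.134. The steadiest genes were Hnrnpu (420.1, 446 and 427 CPM, a ratio of 1.06), Hnrnph3 (8.03, 7.63 and 7.52 CPM, 1.07) and Hnrnpab (205, 219.8 and 208 CPM, 1.07).

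The 5 genes with the largest ratios were all highest in replicate 1. Hnrnph1 was at 58.9, 37.9 and 31.0 CPM, a ratio of 1.90 (adjusted p = 1.57e-109 by the chi-square test). Hnrnpll was at 37.5, 22.5 and 26.4 CPM, a ratio of 1.66 (adjusted p = 2.88e-47 by the same test), with both other libraries well below replicate 1. Srsf5 was at 144, 127 and 91.2 CPM (1.58), Srsf11 at 61.9, 43.7 and 39.6 (1.57) and Hnrnpdl, a relative of Hnrnpd, at 81.7, 71.0 and 53.7 (1.52). Over all 30 expressed members, 12 were highest in replicate 1, 13 in replicate 2 and 5 in replicate 3, where the shares of expressed coding genes were 20.1%, 35.5% and 44.4%. TPM rescaled to coding genes lies higher than CPM in replicate 1 for genes at large (a median shift of 0.08 on the log2 scale, and of -0.07 in replicate 3); on that scale 22 members were highest in replicate 1 and 2 in replicate 3, beside 42.1% and 25.9% of expressed coding genes. The direction of a member between libraries thus depends on the scale. By CPM without replicate 2, 21 of 30 were higher in replicate 1 and 9 in replicate 3. No share of expressed coding genes is given here for this setting, so these counts do not set the members apart.

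The picture changed when only the counts on protein-coding transcripts were used, an alternative added after seeing the data. Then 3 members were highest in replicate 1, 20 in replicate 2 and 7 in replicate 3, against 17.6%, 35.6% and 46.8% of expressed coding genes. Srsf11 had 33.1, 30.5 and 34.1 CPM on coding transcripts, so its excess in replicate 1 was absent from them. For Srsf5 the coding value was 86.2, 106 and 79.1 CPM, with the highest library now replicate 2. Hnrnpll likewise moved, to 15.5, 13.4 and 17.0 CPM with replicate 3 highest. Hnrnph1 kept its order at 32.5, 27.6 and 24.1 CPM, a ratio of 1.35, and Hnrnpdl had 38.6, 39.9 and 25.1 CPM, the largest coding ratio of the families at 1.59. The plot of library differences shows the points of replicate 1 drawing in when all transcripts of other types, NMD transcripts included, are taken away.

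**Figure D2:**
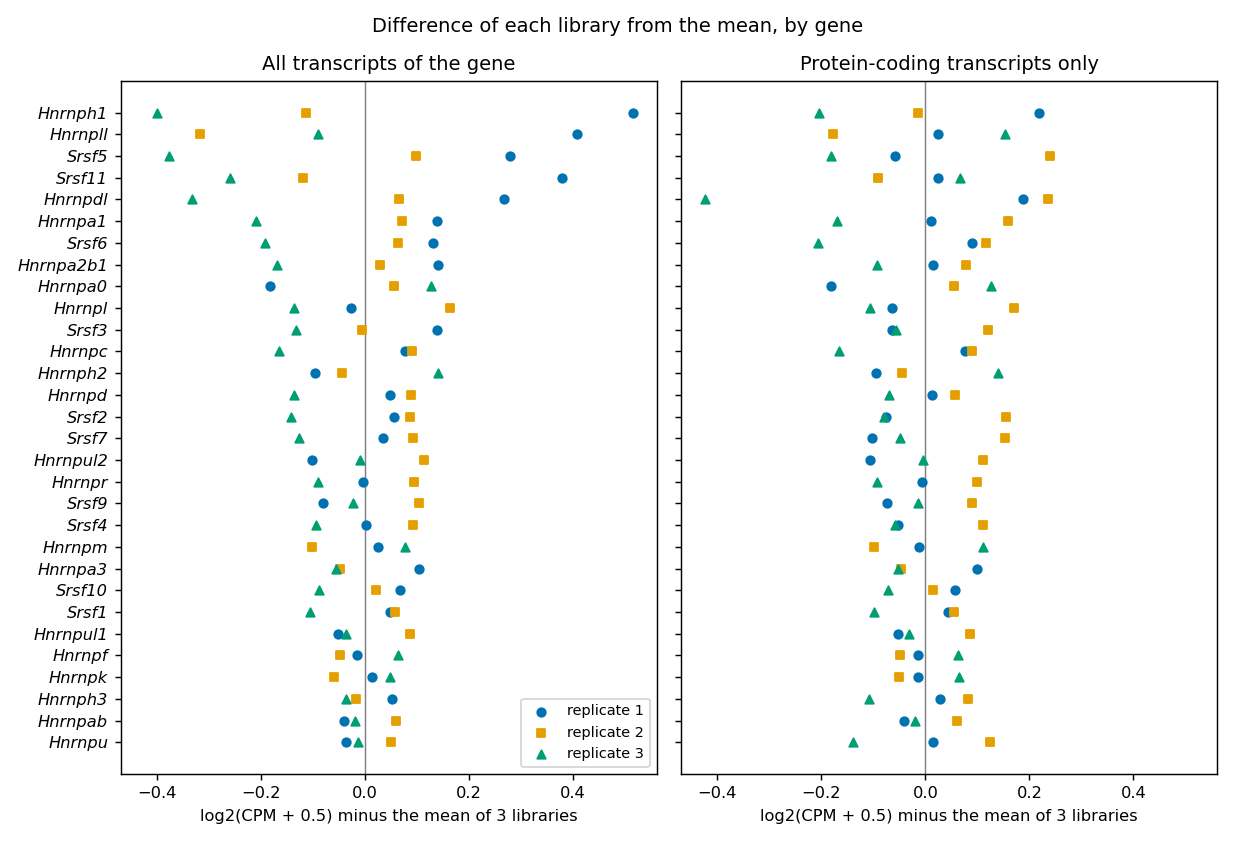
Difference of each library from the mean of the 3, on the log2(CPM + 0.5) scale, for the 30 expressed genes ordered by the ratio of highest to lowest library, with all transcripts of a gene (left) and with its protein-coding transcripts only (right). The upper rows, from Hnrnph1 (0.51 in replicate 1) to Hnrnpdl (0.27), lie far right in replicate 1 on the left panel; on the right panel 3 of the 30 genes have replicate 1 as their highest library.

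Part of what differed between the panels was RNA annotated as retaining an intron. Such transcripts were annotated for 22 of the 30 expressed members (63.1% of expressed coding genes have them), and their share of each gene's TPM in the first transcript table had a median over these members of 7.82%, 2.80% and 1.86% in replicates 1, 2 and 3. Over the 5719 expressed coding genes with such a transcript the medians were 2.99%, 1.83% and 0.981%. The share was highest in replicate 1 for 19 of the 22 members (66.1% of expressed coding genes with a share above 0), and 18 of these were lowest in replicate 3 (49.1%). By the second transcript table, replicate 1 was highest in 21 of 22. No share of expressed coding genes is given here for that table, so this count does not set the members apart. A chi-square test of the whole counts on retained-intron against other transcripts, adjusted over all genes, found a difference between libraries in 20 of 20 members tested (79.3% of all 3797 genes tested), 19 with the highest share in replicate 1 and Srsf1 with the highest in replicate 2. Without replicate 1 it found 12 of 19 (55.5%), and the median share of the members was 2.33% in place of 4.16%. Malat1, Neat1, Xist and Kcnq1ot1 had the same order of libraries (values above); whether nuclear RNA in the cytosolic fraction took part in these shares was not tested.

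**Figure D3:**
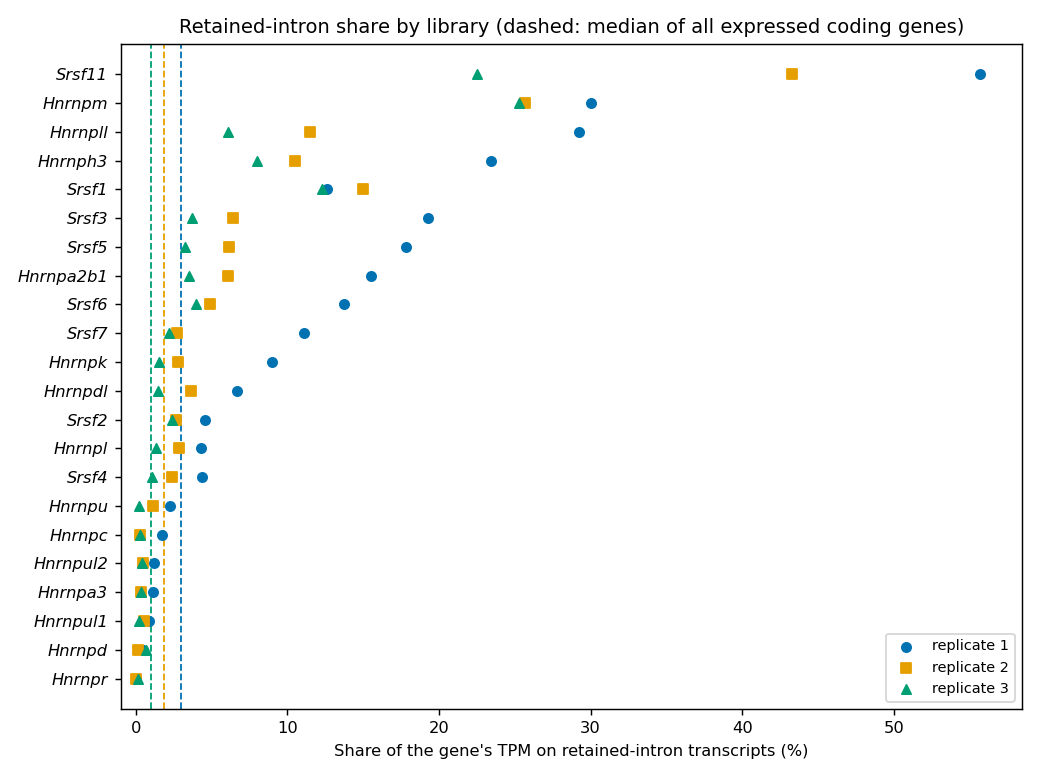
Share of each gene's TPM on transcripts annotated as retaining an intron (percent, first transcript table) in replicates 1, 2 and 3 for the 22 expressed members with such a transcript; dashed lines give the median of all expressed coding genes in the same library (2.99%, 1.83% and 0.981%). Replicate 1 is the rightmost point in 19 of 22 genes, and Srsf11 has the highest shares.

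The SR genes carried the larger shares, with a median of 13.2%, 5.51% and 3.46% over 8 genes, against 3.26%, 1.95% and 1.00% over 14 hnRNP genes. Srsf11 led with 55.7%, 43.3% and 22.5% in the first table and 53.9%, 40.4% and 29.2% in the second. Its 11 retained-intron transcripts outnumber its 5 coding ones in the annotation, and none of the 3 with the highest share (Srsf11-211, Srsf11-208 and Srsf11-213) keeps a whole intron of the main coding transcript. Srsf3 was at 19.3%, 6.39% and 3.69%, and Srsf5 at 17.8%, 6.13% and 3.24%. By counts, which weigh long transcripts more, the share of Srsf5 was 33.6%, 12.6% and 6.82%, or 2462 of its counts in replicate 1 and 315 in replicate 3. Srsf5-212 alone, which keeps an intron of 1229 nt, held 14.5%, 5.12% and 2.66% of the gene's TPM. Srsf6 (13.7%, 4.88% and 3.94%) and Srsf7 (11.1%, 2.73% and 2.21%) were also highest in replicate 1, with replicates 2 and 3 closer to each other than in Srsf3 and Srsf5. Srsf1 had 12.6%, 15.0% and 12.3%, with replicate 2 highest, in the first table and 12.9%, 11.9% and 11.1%, with replicate 1 highest, in the second. Its share sat mostly on Srsf1-203, of 759 nt, and was 2.58% by counts (adjusted p = 0.0231 by the chi-square test between libraries). No Srsf1 transcript of this class keeps a whole intron of the main coding transcript.

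Among the hnRNP genes, Hnrnpll had 29.2%, 11.5% and 6.07% of its TPM on retained-intron transcripts, and Hnrnph3 23.4%, 10.5% and 8.02%. Hnrnpa2b1 was at 15.5%, 6.06% and 3.50%. In each of them replicate 1 stood above both others. Of the Hnrnpll transcripts of this class, only Hnrnpll-202 (2.84%) keeps a whole intron of the main coding transcript. Hnrnpm had 30.0%, 25.7% and 25.3% in the first table but 16.8%, 9.00% and 7.70% in the second, and the gap between tables lay in 1 transcript of 591 nt, Hnrnpm-213 (22.9% against 5.02%). Neither Hnrnpm-213 nor any other Hnrnpm transcript of this class keeps a whole intron of the main coding transcript. Hnrnpu, Hnrnpc, Hnrnpul1, Hnrnpul2, Hnrnpa3, Hnrnpd and Hnrnpr had at most 2.22% in any library of the first table. Hnrnph1 has no transcript of this class; its 15 processed transcripts, which have no annotated reading frame, held 54.7%, 37.9% and 38.4% of its TPM, again highest in replicate 1. For Srsf10, with 6 processed transcripts, that share was 21.1%, 11.5% and 7.76%.

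Transcripts annotated as NMD targets made up most of Hnrnpu by TPM and by counts, and little of many other members, with no common order of the libraries. In Hnrnpdl and Srsf2 their mean share exceeded that of the coding transcripts by TPM of the first table, but not by counts. Such a transcript was annotated for 19 of the 30 expressed members (31.1% of expressed coding genes have them), and their share of TPM had a median of 8.51% ± 2.65 over these members and 2.20% ± 0.165 over the 2819 expressed coding genes that have them. The second table gave 13.1% and 3.42%. These medians describe annotated transcripts, and their difference was not tested. The share was highest in replicate 1 for 10 of the 19 members, in replicate 2 for 2 and in replicate 3 for 7, against 37.0%, 30.1% and 33.0% of expressed coding genes with a share above 0. The chi-square test on counts found 13 of 17 members whose NMD share differed between libraries (72.3% of all 1763 genes tested); without replicate 3 it found 8 of 17 (47.0%). Presence of such RNA in the cytosol is a level at 1 time point and holds no rate of decay.

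The NMD transcripts are of different build. Of 35 such transcripts of the expressed members, 12 in 8 genes have their stop codon in an exon that the most abundant coding transcript skips, 11 in 6 genes share their stop codon with a coding transcript and have splice junctions behind it, and 12 in 7 genes have another stop. In the first group fall Srsf3, Srsf6, Srsf7 and Hnrnpll, whose extra exons have the following reading up to the stop codon. They are shown because the inclusion of these stretches is what sets the NMD transcript apart from the coding one. Each is read 5′ to 3′ on the gene's strand (mm10, from the GENCODE transcripts), begins at the first base of the extra exon, and ends with the stop codon in capitals, which a translation from the annotated start codon reached as its first stop.
Srsf3-201: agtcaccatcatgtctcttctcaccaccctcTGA
Srsf6-201: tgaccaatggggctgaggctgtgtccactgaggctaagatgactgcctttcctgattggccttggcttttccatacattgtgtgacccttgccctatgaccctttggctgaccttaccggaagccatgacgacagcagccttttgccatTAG
Srsf7-203: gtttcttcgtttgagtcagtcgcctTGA
Hnrnpll-203: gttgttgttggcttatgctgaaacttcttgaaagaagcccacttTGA

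The stretch of Srsf3 lies at chr17:29039454-29039487 on the plus strand, that of Srsf6 at chr2:162932815-162932966 on the plus strand, that of Srsf7 at chr17:80205054-80205081 on the minus strand and that of Hnrnpll at chr17:80044976-80045022 on the minus strand; all are exonic in the NMD transcript and intronic in the coding one. The whole exons measure 456, 268, 460 and 83 nt. Between the stop codon and the last splice junction lie 548, 534, 699 and 807 nt of spliced RNA, and 3, 4, 5 and 7 junctions follow the stop. In Srsf3, Srsf6 and Srsf7 the retained-intron transcripts named here keep the very intron that holds the extra exon (introns of 2150, 1283 and 874 nt): Srsf3-204 held 5.06%, Srsf6-204 7.51%, and Srsf7-206 with Srsf7-207 5.04% of the gene's TPM. In these genes, reads inside the extra exon can thus come from either kind of transcript. The other retained-intron transcripts of Srsf3 and Srsf7 keep no whole intron of the main coding transcript.

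Srsf3-201, with the exon shown above, held 15.6%, 15.1% and 21.1% of the TPM of Srsf3 in the first table and 19.9%, 25.4% and 30.8% in the second, highest in replicate 3 in both. The coding transcript Srsf3-202 held 63.1%, 78.5% and 75.2% in the first table. In counts the NMD share of Srsf3 was 15.0%, 14.7% and 20.7% (adjusted p = 4.14e-15 by the chi-square test). Srsf6-201 held 9.39%, 13.5% and 21.8% in the first table, with the libraries in the reverse order of the retained-intron share, and 38.1%, 53.0% and 52.6% in the second. The table chosen therefore moved the coding share of Srsf6 from 77.6% to 41.5%, the widest gap of the families, ahead of Hnrnpll (54.6% and 39.1%), Srsf3 (72.3% and 58.3%) and Hnrnpd (62.7% and 72.8%). Hnrnpll-203 was steady between libraries, at 29.0%, 29.8% and 30.6% in the first table and 38.3%, 41.7% and 45.3% in the second, and the counts did not differ past the threshold (adjusted p = 0.383 by the chi-square test). Srsf7-203 was rare, at 1.56% ± 0.641. For Srsf4, Srsf4-204 held 9.73% ± 1.75, but its start codon is not annotated, so its frame was not read.

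In the second group the stop codon is that of a coding transcript, with junctions behind it. In Hnrnpdl-201, Hnrnpa1-203, Hnrnpd-208 and Srsf2-204 it is the stop codon of the most abundant coding transcript, whereas Hnrnph3-204 skips a coding exon and ends 686 nt before the stop of Hnrnph3-201. Hnrnpdl-201 held 25.6%, 25.8% and 40.3% of the TPM of Hnrnpdl, with its stop 126 nt and 2 junctions ahead of the last junction. With Hnrnpdl-205, whose annotated stop lies in its first exon, the NMD share reached 52.0%, 46.9% and 58.0%, above the 35.6%, 45.0% and 37.7% on coding transcripts. By counts the order turned in replicates 1 and 2: the NMD share was 45.3%, 38.8% and 50.4%, and the coding share 47.2%, 56.3% and 46.8%. Hnrnpa1-203 held 41.2%, 32.8% and 38.4%, and the NMD share of Hnrnpa1, a splicing silencer that shuttles to the cytoplasm, was 45.1%, 35.3% and 39.6% with replicate 2 lowest. Hnrnpd-208 held 35.7%, 36.0% and 29.9%, and the NMD share of Hnrnpd was 40.2%, 38.7% and 31.7%. The distance from the stop to the last junction was 90 nt in Hnrnpa1-203 and 137 nt in Hnrnpd-208. Srsf2-204, a transcript of 620 nt and 3 exons, held 55.3%, 45.6% and 47.5% of the TPM of Srsf2, with its stop 113 nt before the last junction. No start codon is annotated for Srsf2-204, Hnrnpd-208 or Hnrnpdl-205, so their frames were not read. The coding share of Srsf2 was 39.7%, 51.8% and 49.8%, so the NMD share was the higher only in replicate 1. By counts the NMD share was 24.8%, 18.6% and 19.5%; counts are not divided by length, and the coding Srsf2-201 is 1899 nt long. Replicate 1 was the highest library of Srsf2 on either scale.

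Hnrnpu had the highest NMD share of all, 79.5%, 81.3% and 85.4% in the first table and 75.1%, 81.4% and 86.3% in the second. Nearly all of it was 1 transcript, Hnrnpu-206 of 2844 nt (81.7% ± 3.05), while the coding Hnrnpu-201 of 7640 nt held 15.4% ± 1.30. The pair shares 12 of the 13 introns of Hnrnpu-201. In place of the long last exon, Hnrnpu-206 joins to 4 exons of its own, the first inside that last exon and the others beyond its end. Its stop codon lies in the first of these, an exon of 71 nt, 183 nt and 3 junctions ahead of the last junction. By counts, which are not divided by length, Hnrnpu-206 held 62.6%, 62.9% and 68.2% of the gene and exceeded the coding transcript in each library (35.5%, 36.1% and 31.4%). The search for shared runs of bases covered the coding transcript, not the exons that Hnrnpu-206 has of its own.

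**Figure D4:**
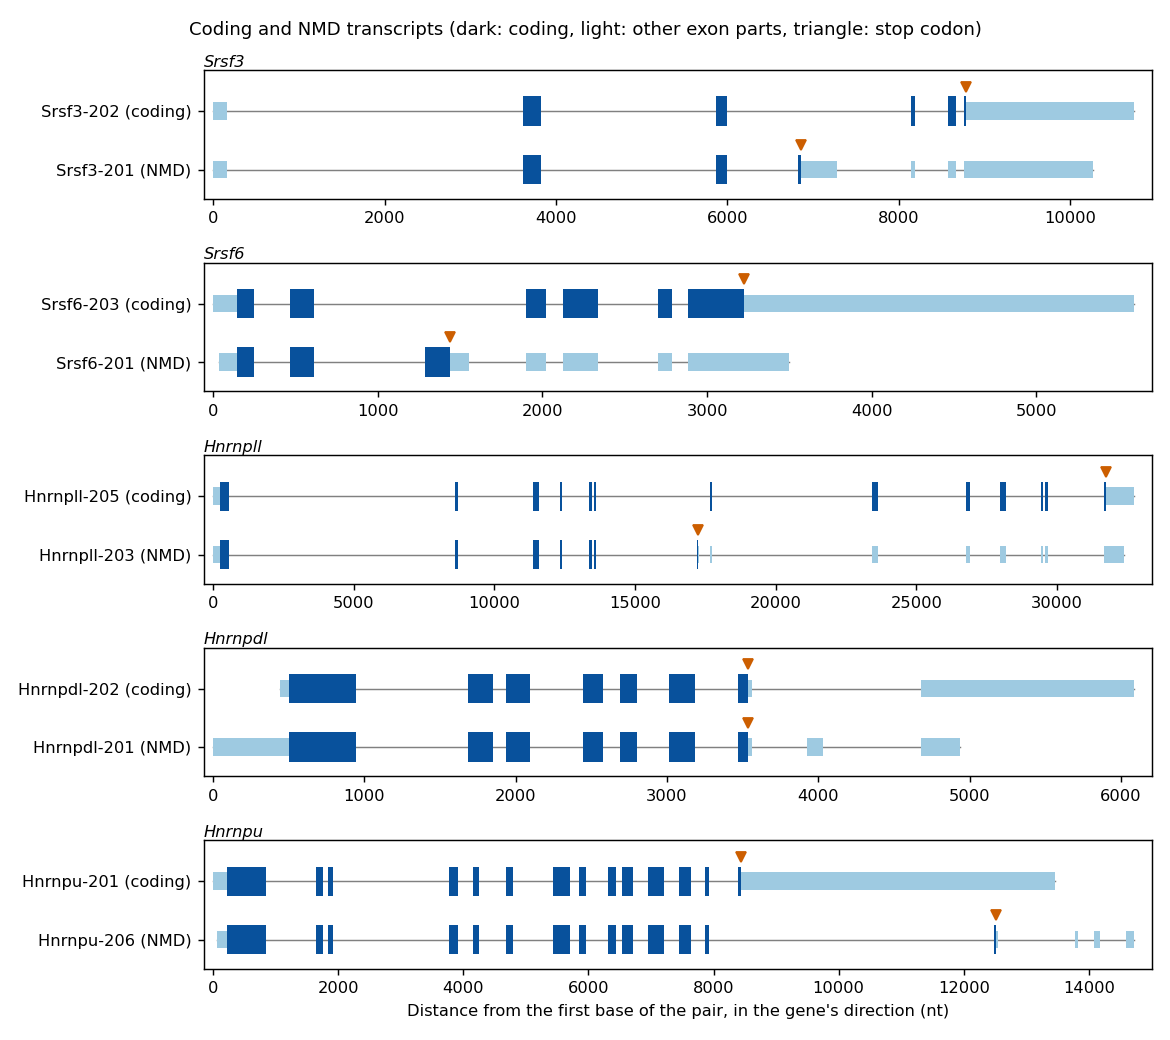
Exons of the most abundant coding transcript and of the main NMD transcript of Srsf3, Srsf6, Hnrnpll, Hnrnpdl and Hnrnpu, to scale as distance in nucleotides from the first base of the pair, in the gene's direction; dark boxes are coding, light boxes are other exon parts, and triangles mark stop codons. In Srsf3, Srsf6 and Hnrnpll the stop moves into an extra exon, in Hnrnpdl the stop is shared and an exon is added behind it, and in Hnrnpu 4 other exons take the place of the last one.

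**Figure D5:**
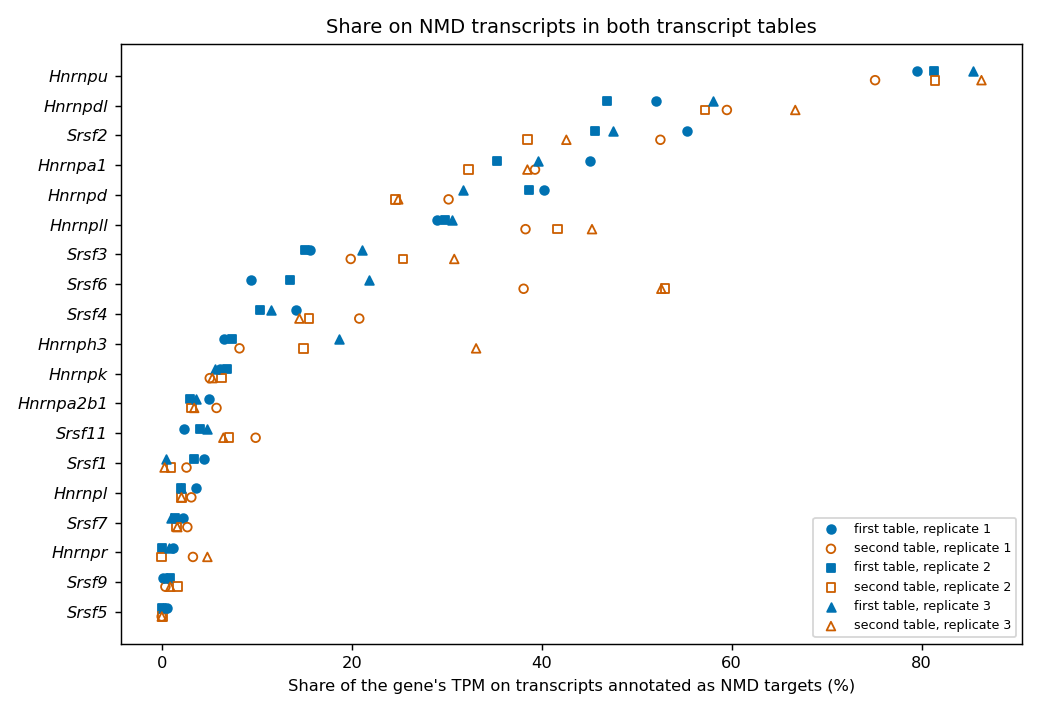
Share of each gene's TPM on transcripts annotated as NMD targets (percent) for the 19 expressed members that have one, in the first (filled) and the second (open) transcript table, by replicate. Hnrnpu lies between 75.1% and 86.3% in all 6 values, and Srsf6 shows the widest separation of the tables.

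In the remaining genes with an NMD transcript the shares were lower. Hnrnph3 was at 6.57%, 7.42% and 18.7%, with replicate 3 above both others, but these rest on 31.8, 27.4 and 69.8 expected counts. Hnrnpk (6.20% ± 0.658), Hnrnpa2b1 (3.86% ± 1.05), Srsf11 (3.71% ± 1.22), Srsf1 (2.76% ± 2.09) and Hnrnpl (2.55% ± 0.901) came next, and Hnrnpr, Srsf9 and Srsf5 had at most 1.19% in any library of the first table. Whether a gene has such a transcript at all is a matter of annotation: the members have a median of 7.5 annotated transcripts a gene, and expressed coding genes 5.

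Most other genes of the splicing machinery were expressed too. Of the SR-like proteins, which carry arginine and serine domains without belonging to the Srsf family, 10 of 10 were expressed, with a median of 22.2 ± 4.07 TPM; the speckle scaffolds Srrm2 (51.2 ± 6.02) and Son (49.7 ± 9.35) led them. Of the kinases and carriers that phosphorylate and import SR proteins, 10 of 11 were expressed at a median of 11.3 ± 2.17 TPM, and the muscle kinase Srpk3 was near 0 (0.0567). Clk1, a nuclear kinase of SR proteins whose own transcript is known for retained introns, was at 57.7, 27.0 and 25.9 CPM with a retained-intron share of 32.4%, 20.8% and 9.72%, and Clk4 had 52.5%, 30.4% and 15.9%. Other hnRNP-class proteins and splicing regulators had 24 of 25 genes expressed (27.0 ± 3.77), with Pcbp2 at 183 ± 34.6 and Mbnl1 at 132 ± 18.7 TPM, and Rbfox2 at 0.0400. By the heterogeneity test 10 of 10 tested SR-like genes, 9 of 10 kinases and carriers and 24 of 25 regulators differed between libraries, as did 15 of 22 U1, U2 and Sm genes, 12 of 14 tri-snRNP genes, 8 of 10 exon junction and export genes and 8 of 10 NMD factors, beside 70.4% of all genes.

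Of the core spliceosome genes examined, 22 of 22 U1, U2 and Sm genes (17.4 ± 2.34 TPM) and 14 of 14 of the tri-snRNP and catalytic list (12.5 ± 1.34) were expressed. The exon junction and export list (10 of 10, 10.1 ± 1.82) and the NMD factors (10 of 10, 7.56 ± 1.44) were expressed as well, with Upf1, the helicase of NMD, at 11.2 ± 1.86 TPM. The retained-intron share was highest in replicate 1 in 9 of 9 SR-like genes, 9 of 10 kinases and carriers, 18 of 19 regulators and 6 of 6 NMD factors that have such a transcript. It was so in 10 of 17 U1, U2 and Sm genes, 5 of 10 tri-snRNP genes and 3 of 6 exon junction and export genes, beside 66.1% of expressed coding genes and 19 of 22 SR and hnRNP genes. The difference between these lists was not tested.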

How the data were processed

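The gene list and the companion lists were chosen with earlier results of these data known. The authors deposited, for each library, a gene table and a first transcript table with expected counts and TPM, and a second transcript table with estimated counts and TPM. The notes deposited with the files name the mm10 assembly and GENCODE M21. Which quantifier and aligner were used, in which version and with which strand option, is not given in the sources used here; sense and antisense reads at overlapping genes therefore cannot be told apart. Entries that name no gene (0.0785%, 0.0521% and 0.0251% of counts) were left out. Expected counts were rounded. Heterogeneity was a Poisson chi-square with 2 degrees of freedom against TMM sizes (edgeR 4.0.16) where the mean count was 10 or more; shares were tested by a chi-square of 3 libraries by 2 classes with at least 10 counts a class; Benjamini-Hochberg adjustment at 0.05 ran over all genes. Both tests were tested on simulated Poisson and binomial counts. These hold no assignment error and no extra spread between cultures, so they cannot show how the tests behave with either. Dispersion came from an intercept-only edgeR fit. Estimated counts carry assignment error that these tests do not hold. Structures and sequences came from GENCODE M21. Genes are named by rank in level, ratio, share and table difference; further members are given because all are described, and Clk1 and Clk4 were named after their values were seen. DESeq2 1.42.0 size factors were an alternative.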

Additional observations from a re-analysis of the deposited data

How the results depend on the processing

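Of 136 alternatives run, 104 kept the value or call within the replicate spread or 1.5 times the count. The median level moved to 64.2 (Srsf) and 132 TPM (Hnrnp) when rescaled to coding genes and to 9.16 and 16.6 in the second table. Members highest in replicate 1 numbered 22 on rescaled TPM (42.1% of expressed coding genes) and 3 on coding transcripts (17.6%). Those highest in replicate 3 numbered 2 on rescaled TPM (25.9%). By CPM with a library left out, 15 to 21 were highest in replicate 1 and 6 to 9 in replicate 3. For these settings no share of expressed coding genes is given here, so these counts do not set the members apart. The median NMD share of the members was 13.1% in the second table, 4.58% by counts and 12.6% when pooled. With at least 50 counts a class, 1570 of 1835 genes tested differed in the retained-intron share (85.6%, beside 79.3% in the main setting). In the NMD share 831 of 1023 did (81.2%, beside 72.3%). Of the members, 14 of 14 and 10 of 12 differed. Leaving out 1 library gave 18 to 27 members that differ in counts (50.7% to 53.5% of all genes tested). It gave 12 to 20 in the retained-intron share (1933 to 2868 of all genes, 54.5% to 75.5%). In the NMD share it gave 8 to 12 (829 to 1013 of all genes, 47.0% to 57.5%). The fewer libraries are part of each such change. Of 60 alternatives for single genes, 13 moved. The NMD share of Hnrnpdl exceeded its coding share by TPM (52.3% and 39.4%) but not by counts (44.8% and 50.1%), and Srsf1 changed its highest library in the second table. No paired analysis was possible because all libraries belong to 1 group. Depth limits Srsf12 and the shares of Hnrnph3.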
